A study of Mus musculus with 4 samples.

Results

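The 6 genes described here encode fatty acid elongases, the enzymes that begin each round of fatty acid lengthening. They are Elovl1, Elovl2, Elovl3, Elovl5, Elovl6 and Elovl7, 6 of the 39179 genes in the tables. They were taken by their gene symbol, and each symbol was carried by 1 row. RNA came from samples labelled as liver tumors of wild-type C57BL/6 mice whose hepatocytes had received transposons for Myc and for NrasG12V, a constantly active Nras, by hydrodynamic injection, a rapid tail-vein injection that reaches mainly hepatocytes. All 4 libraries share this strain and this pair of oncogenes, and they differ in what the mice were given for 3 weeks on every second day. Carrier was given for 2 libraries and sorafenib, a drug that blocks RAF and several receptor tyrosine kinases, for the other 2. The age of the mice, their number and whether a library pools several tumors are not stated, so a p-value measures the spread between libraries, which may be technical.

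Fatty acids longer than palmitate are made in the endoplasmic reticulum by a cycle of steps that adds carbons from malonyl-CoA to an acyl-CoA. An elongase condenses the pair and sets which chains are lengthened, a ketoacyl reductase, a dehydratase and an enoyl reductase finish the round, and these later enzymes are shared by every elongase. Elovl6 lengthens palmitate to stearate and works beside fatty acid synthase and the desaturase Scd1 in liver, where the SREBP-1c and ChREBP factors are known to drive it. Elovl5 and Elovl2 lengthen polyunsaturated chains between the steps of the desaturases Fads1 and Fads2, with Elovl2 taking the longer ones on the way to docosahexaenoic acid. Elovl1, Elovl3 and Elovl7 lengthen saturated and monounsaturated chains toward very long ones, such as those in sphingolipids.

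The promoter sequences show how differently these genes begin. RefSeq promoter windows on GRCm38.p6, each from 250 bases before a transcription start to 50 after it, were at hand for 5 of the 6 genes. Elovl3 was not matched. Upstream stretches of the 2 best measured genes that read higher in each sorafenib library than with carrier, Elovl6 and Elovl5, and of Elovl7, nearly absent from 1 sorafenib library, are printed here on the plus strand, 5′ to 3′, and stop before the first annotated start. Capitals mark the E-box CACGTG and the CCAAT box, read on either strand (ATTGG is CCAAT on the other strand).
Elovl6, chr3:129532136-129532354: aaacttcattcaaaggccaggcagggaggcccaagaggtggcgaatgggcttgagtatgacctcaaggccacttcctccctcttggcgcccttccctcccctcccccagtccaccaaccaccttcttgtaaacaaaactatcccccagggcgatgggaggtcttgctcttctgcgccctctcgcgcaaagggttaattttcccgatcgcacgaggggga
Elovl5, chr9:77917115-77917363: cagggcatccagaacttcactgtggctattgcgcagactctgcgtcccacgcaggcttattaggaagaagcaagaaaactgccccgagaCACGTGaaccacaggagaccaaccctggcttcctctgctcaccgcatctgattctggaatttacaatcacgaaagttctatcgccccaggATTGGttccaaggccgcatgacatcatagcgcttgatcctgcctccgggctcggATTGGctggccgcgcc
Elovl7, chr13:108214154-108214403: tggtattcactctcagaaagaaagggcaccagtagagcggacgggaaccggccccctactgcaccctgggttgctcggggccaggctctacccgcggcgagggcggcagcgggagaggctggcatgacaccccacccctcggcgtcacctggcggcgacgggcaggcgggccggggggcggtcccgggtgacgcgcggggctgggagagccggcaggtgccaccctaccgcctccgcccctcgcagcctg
In the whole windows, Elovl5 held 1 E-box, which starts 161 bases before the start site, and 2 CCAAT boxes on the other strand, 71 and 17 bases before it. The first of the 2 Elovl1 windows held 1 CCAAT box. The windows of Elovl2, Elovl6 and Elovl7 held none of the 4 motifs searched on both strands, which were the E-box, the CCAAT box, the sterol regulatory element TCACNCCAC and the LXR element, a pair of direct repeats. Of all 32851 windows, 7.15% held the E-box, 37.4% CCAAT, 1.24% the sterol regulatory element and 0.0152% the LXR element. No motif contains another. GC content was 55.7% for Elovl6 and 57.7% for Elovl5, against 74% for Elovl7, 76.7% and 84.7% for the 2 Elovl2 windows and 59% and 70.7% for those of Elovl1. The median over all windows was 52.7%.

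The tables give reads scaled to a library total of 1000000 (CPM), from 4067427 to 5932939 reads per library, and 12005 to 13270 genes reached 1 CPM. The 6 hepatocyte markers summed to between 102456 and 142122 CPM, with Alb at 71696 to 107514 CPM, so liver tissue was present in every library. Replicate 1 comes before replicate 2 wherever a group's values are given as a pair. Sorafenib replicate 2 stood apart. Its 6 oncofetal tumor markers (Afp, H19, Igf2, Gpc3, Igf2bp3 and Prom1) summed to 88.2 CPM, against 38169 and 33094 CPM in the carrier libraries and 15210 CPM in sorafenib replicate 1, and its 6 proliferation markers to 5.72 CPM against 155, 152 and 96.9 CPM. On log2(CPM + 1) it correlated across genes at 0.878 and 0.889 with the carrier libraries, where sorafenib replicate 1 correlated at 0.961 with both. In bulk tissue, fewer cells of a type and less RNA per cell cannot be told apart. Whether sorafenib replicate 2 holds tumor tissue cannot be settled from these values, and this bears on each of its values and on every sorafenib mean. Each elongase is therefore also given for either sorafenib library alone.

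Elovl6, Elovl5 and Elovl3 each read higher in either sorafenib library than in any carrier library, and Elovl6 by the widest margin of the abundant elongases. Elovl2 and Elovl1 had overlapping groups, and Elovl7 was near its carrier level in 1 sorafenib library and almost missing from the other. None of the 6 passed the test over all genes: limma on log2(CPM + 1) called 0 of 13149 tested genes (0%) at an adjusted p of 0.05 with Benjamini-Hochberg adjustment. edgeR's quasi-likelihood test on whole reads also called 0, while an unadjusted limma p under 0.05 was found for 2529 genes (836 higher, 1693 lower). DESeq2 on the same reads called 499, with 449 higher (3.41%) and 50 lower (0.380%). Of the tested genes, 17.5% had the sorafenib pair wholly above the carrier pair and 41.3% wholly below it, and of the elongases 3 were above and 1 below. With TMM scaling these shares were 27.2% and 29.2%, and 4 elongases were above and 0 below. With 1 library left out, limma called 9.46% of genes higher and 31.4% lower without sorafenib replicate 1, 2.05% and 1.73% without sorafenib replicate 2, and 0.00795% higher without carrier replicate 1. Elovl3 passed the filter of at least 1 CPM in 2 libraries through its sorafenib libraries alone, so it had to differ.

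Elovl6 (ENSMUSG00000041220, chromosome 3, 129532355 to 129638495 on GRCm38, plus strand), the palmitate elongase, measured 98.8 and 72.1 CPM with carrier and 279 and 474 CPM with sorafenib. Both sorafenib libraries were high, and the lower of them lay well above the higher carrier library. The mean was 376 ± 138 against 85.4 ± 18.9 CPM (SD, n = 2 each), a 4.40-fold difference. On the log2(CPM + 1) scale the fold change was 2.09 (SE 0.319, 95% interval 1.32 to 2.87, limma adjusted p = 0.24), the rank 22 of 13149 genes by p. Setting a single sorafenib library against the carrier pair gave a log2 fold change of 1.71 (replicate 1) or 2.48 (replicate 2). In these fits the lone sorafenib library is assumed to vary like the carrier pair, so their p-values are not given for any elongase. DESeq2 gave 2.46 with an adjusted p of 1.29e-05. Exons of Elovl6 share 34 bases with the antisense gene Gm35986, and the strand setting of the counting is not given in the sources used here.

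Elovl5 (ENSMUSG00000032349, chromosome 9, 77917364 to 77984519, plus strand), the main elongase of polyunsaturated chains in liver, measured 246 and 264 CPM with carrier and 402 and 824 CPM with sorafenib. The carrier libraries were close together, and the sorafenib libraries lay above them but 2.05-fold apart. The log2 fold change was 1.17 (SE 0.358, 95% interval 0.30 to 2.04, limma adjusted p = 0.241). Taken alone, sorafenib replicate 1 gave 0.66 and sorafenib replicate 2 gave 1.69, so the size of the difference rests on which library is used. DESeq2 called it, with a log2 fold change of 1.6001 and an adjusted p of 0.0203.

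Elovl2 (ENSMUSG00000021364, chromosome 13, 41182381 to 41220405, minus strand), which extends the longer polyunsaturated chains, measured 326 and 468 CPM with carrier and 449 and 696 CPM with sorafenib. The groups overlapped, since sorafenib replicate 1 lay between the carrier libraries. With TMM, RLE or upper-quartile scaling it lay just above them, for example at 445 against 434 TMM-scaled CPM in carrier replicate 2. The log2 fold change was 0.52 (SE 0.311, 95% interval -0.24 to 1.27, limma adjusted p = 0.365). The interval holds both 0 and a doubling, which is 1 on this scale. With each sorafenib library alone the fold change was 0.20 and 0.83 for replicates 1 and 2.

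Elovl1 (ENSMUSG00000006390, chromosome 4, 118428093 to 118432953, plus strand), the elongase of saturated very long chains that go into ceramides, measured 67.6 and 56.4 CPM with carrier and 62.9 and 33.7 CPM with sorafenib. Sorafenib replicate 1 lay between the carrier libraries and replicate 2 lay below all others. The log2 fold change was -0.41 (SE 0.337, 95% interval -1.23 to 0.41, limma adjusted p = 0.49). Taken alone, sorafenib replicate 1 gave 0.027, which is near 0, and sorafenib replicate 2 gave -0.85. The lower mean therefore came from sorafenib replicate 2. Elovl1 shares 53 exon bases with Cdc20, a mitotic gene on the opposite strand, which measured 22.6 and 16.8 CPM with carrier and 8.60 and 0 CPM with sorafenib. Its part in the Elovl1 value was not tested.

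Elovl7 (ENSMUSG00000021696, chromosome 13, 108214404 to 108285683, plus strand), an elongase of long saturated chains, measured 10.6 and 12.3 CPM with carrier and 9.83 and 0.381 CPM with sorafenib, from 63, 65, 40 and 2 reads. The Wilson 95% interval, which covers counting error only, was 7.22 to 13.4 CPM for the former sorafenib library and 0.105 to 1.39 CPM for the latter. Sorafenib replicate 1 was therefore within counting error of the carrier libraries, and with TMM or RLE scaling it lay between them. The carrier libraries together had 29.9 times the level of sorafenib replicate 2 (exact 95% counting interval 8.11 to 249). The log2 fold change was -1.68 (SE 0.915, 95% interval -3.91 to 0.54, limma adjusted p = 0.33). It was -0.20 from sorafenib replicate 1 and -3.17 from sorafenib replicate 2 when each was taken alone.

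Elovl3 (ENSMUSG00000038754, chromosome 19, 46131897 to 46135694, plus strand), known from skin and brown fat and higher in male than in female mouse liver, was barely present. It had 1 read in each carrier library, or 0.169 and 0.189 CPM, and 11 and 7 reads in sorafenib replicates 1 and 2, or 2.70 and 1.33 CPM. The sorafenib libraries were both above the carrier libraries, though the counting intervals of sorafenib replicate 2 (0.646 to 2.75 CPM) and carrier replicate 2 (0.0333 to 1.07 CPM) overlap. Over each group's pooled reads the ratio was 10.9 (exact 95% counting interval 2.599 to 96.5). Elovl3 passed the filter through its sorafenib libraries alone. This interval and the limma values given next are therefore a description and no support for a difference. The log2 fold change was 1.32 (SE 0.383, 95% interval 0.39 to 2.25, limma adjusted p = 0.24) and depends on the pseudocount at this level, being 1.84 with 0.5 in place of 1. All 4 libraries had the pattern of female tissue, with Xist at 810 to 1438 CPM and 0 reads for Ddx3y, Eif2s3y, Kdm5d and Uty, where 0 reads allow up to 0.738 CPM in the shallowest library. Elovl4, the remaining gene of the family in the tables, had 0 reads in all 4 libraries.

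**Figure D1:**
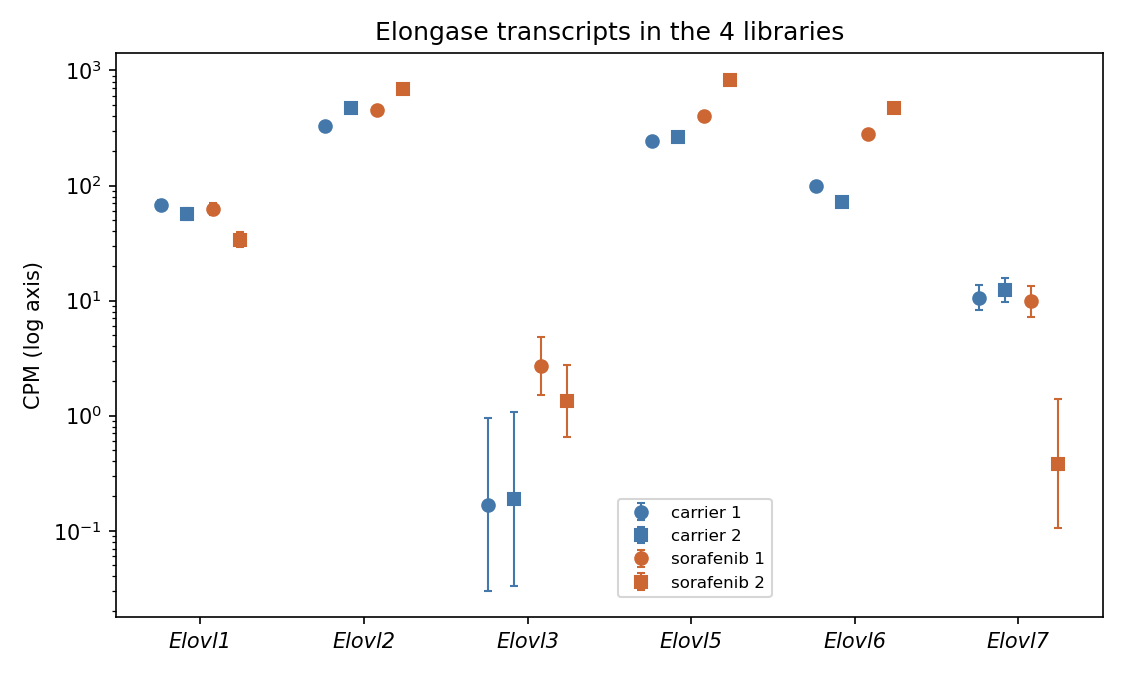
CPM (log axis) of the 6 elongases in the 4 libraries, carrier in blue and sorafenib in orange, circles for replicate 1 and squares for replicate 2; bars are Wilson 95% intervals of counting error. The sorafenib points of Elovl6 (279 and 474 CPM) and Elovl5 (402 and 824 CPM) lie above the carrier points, and the Elovl7 point of sorafenib replicate 2 (0.381 CPM) lies far below the other 3.

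The fold changes are best read against the shift of all genes. The median log2 fold change of the 13149 tested genes was -0.26 on CPM, and -0.04, -0.02 and -0.09 with TMM, RLE and upper-quartile scaling. Relative to the CPM median, Elovl6 stood at 2.35, Elovl3 at 1.58, Elovl5 at 1.43, Elovl2 at 0.78, Elovl1 at -0.15 and Elovl7 at -1.42. All 6 kept the sign of the fold change under the 3 scalings, with Elovl1 nearest to 0 at -0.15 with RLE factors. For Elovl1, Elovl2, Elovl5, Elovl6 and Elovl7 the fold change had the larger size in sorafenib replicate 2, and for Elovl3 in sorafenib replicate 1.

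**Figure D2:**
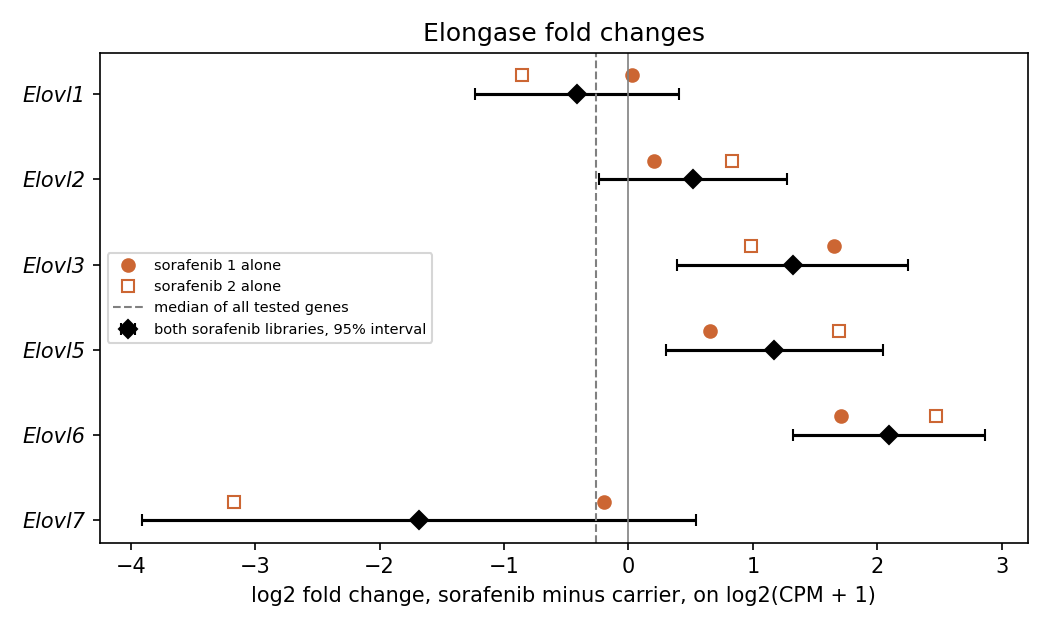
Log2 fold change of each elongase, sorafenib minus carrier, on log2(CPM + 1): diamonds with limma 95% intervals for both sorafenib libraries, filled circles and open squares for sorafenib replicates 1 and 2 alone, and a dashed line at the median of all tested genes (-0.26). The Elovl6 interval runs from 1.32 to 2.87, while those of Elovl1, Elovl2 and Elovl7 cross 0.

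Levels of different elongases were compared per kilobase of exon, since their annotated exons add up to between 1975 bases for Elovl3 and 6431 bases for Elovl6. In the carrier libraries the 2 polyunsaturated elongases were highest. Elovl2 was at 82.2 and 118 CPM per kilobase and Elovl5 at 69.8 and 74.9, followed by Elovl1 at 24.8 and 20.7, Elovl6 at 15.4 and 11.2, Elovl7 at 2.65 and 3.06 and Elovl3 at 0.0853 and 0.0955. The order was the same in both carrier libraries, with no overlap between neighbours at this length. With the longest transcript as length, Elovl5 stood above Elovl2 in carrier replicate 1 (88.4 against 84.8) and below it in carrier replicate 2 (94.9 against 122), so these neighbours overlap. In sorafenib replicates 1 and 2, Elovl5 stood first at 114 and 234 CPM per kilobase, Elovl2 second at 113 and 176, then Elovl6 at 43.3 and 73.7 and Elovl1 at 23.1 and 12.4. Elovl6 stood above Elovl1 in both sorafenib libraries and below it in both carrier libraries with either length, whereas on CPM not divided by length it was above in all 4. The lead of Elovl5 over Elovl2 was small in sorafenib replicate 1 and over these 2 libraries their ranges overlap. Elovl7 and Elovl3 came last in each library, at 2.45 and 1.37 CPM per kilobase in sorafenib replicate 1 and in the reverse order, 0.0950 and 0.676, in sorafenib replicate 2.

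Summed over the 6 genes, the level was 195 and 228 CPM per kilobase in the carrier libraries and 298 and 496 in sorafenib replicates 1 and 2, a ratio of group means of 1.88. An exact two-sided permutation test over the 4 libraries gave p = 0.333, the smallest that this design allows. As a share of the sum, Elovl6 went from 7.88% and 4.92% in the carrier libraries to 14.6% and 14.8% in sorafenib, and Elovl5 from 35.8% and 32.9% to 38.3% and 47.1%. Elovl2 held 42.2% and 51.7% against 38.1% and 35.4%, Elovl1 12.7% and 9.08% against 7.76% and 2.49%, and Elovl7 1.36% and 1.34% against 0.823% and 0.0191%. The Elovl6 share was nearly equal in the 2 sorafenib libraries, although its level there differed 1.70-fold. Elovl3 held 0.0438% and 0.0419% against 0.460% and 0.136%. Groups did not overlap for any of the 6 shares, which add to a whole and are not independent, and each exact p was 0.333. Elovl3 passed the filter through its sorafenib libraries alone, so its part in this count is a description and no support for a difference.

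**Figure D3:**
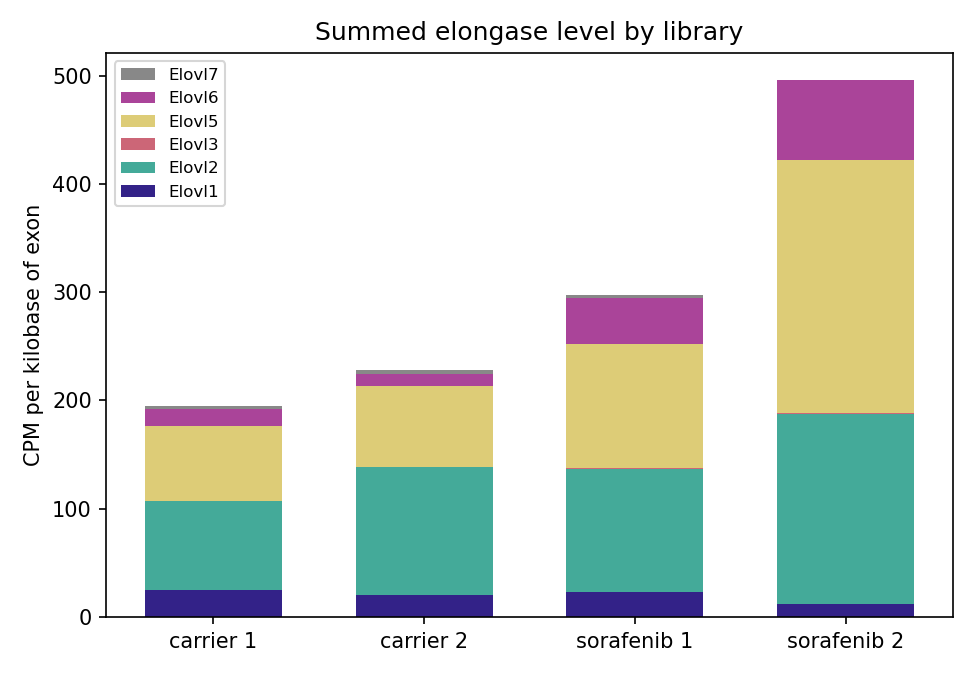
Stacked bars of CPM per kilobase of exon for the 6 elongases in each library, starting at 0. The bars sum to 195, 228, 298 and 496, and the Elovl6 segment takes 7.88%, 4.92%, 14.6% and 14.8% of them.

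Isozyme against isozyme, 15 pairs were compared by the log2 ratio of CPM + 1 within each library. Groups did not overlap for 10 pairs, with 4 ratios higher and 6 lower in sorafenib as the pairs are written here. The 15 pairs come from 6 genes and are not independent, and pairs of other genes were not counted. The count is therefore a description. It includes Elovl1 over Elovl3 and Elovl3 over Elovl7, and Elovl3 passed the filter through its sorafenib libraries alone. Each of the 10 pairs had an exact two-sided permutation p of 0.333, or 0.5 when adjusted over the 15 pairs. No pair could have reached 0.05. The other abundant elongases all stood lower against Elovl6 with sorafenib. Elovl5 over Elovl6 was 1.31 and 1.86 in the carrier libraries against 0.53 and 0.80 in sorafenib. Elovl2 over Elovl6 was 1.71 and 2.68 against 0.69 and 0.55, and Elovl1 over Elovl6 was -0.54 and -0.35 against -2.13 and -3.77. Within the polyunsaturated pair, Elovl2 over Elovl5 was 0.40 and 0.82 in the carrier libraries against 0.16 and -0.24 in sorafenib.

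Ratios to Elovl7 spread widely in sorafenib because Elovl7 was low in replicate 2. Elovl6 over Elovl7 was 3.10 and 2.46 in the carrier libraries and 4.69 and 8.43 in sorafenib replicates 1 and 2, the largest change of the 15 pairs at 3.78 between the group means. Elovl1 over Elovl7 was 2.56 and 2.11 against 2.56 and 4.65, so its groups overlapped to the second decimal. The change in Elovl3 over Elovl5 was 0.15, or 0.66 with a pseudocount of 0.5 and 1.00 without sorafenib replicate 2, and this log2 ratio was -6.76 in sorafenib replicate 1 and -8.46 in sorafenib replicate 2.

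**Figure D4:**
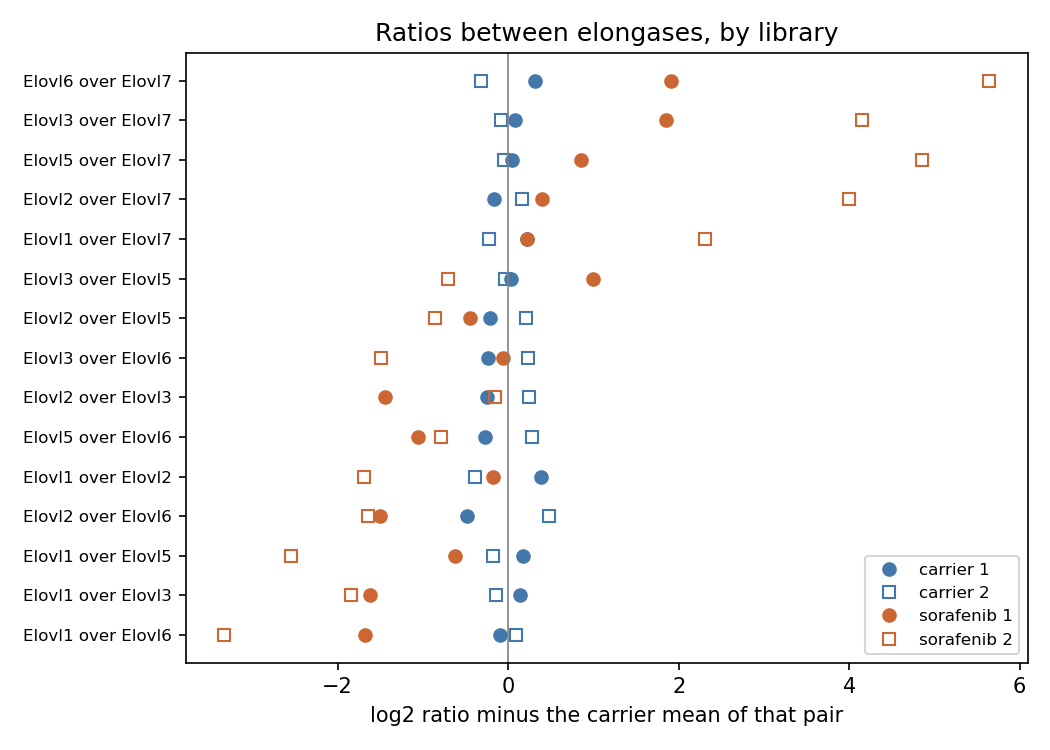
Log2 ratio of each of the 15 elongase pairs in each library, minus the mean of the carrier libraries for that pair; circles are replicate 1, open squares replicate 2, blue carrier and orange sorafenib. Pairs with Elovl7 as denominator reach furthest to the right, and Elovl1 over Elovl6 lies furthest to the left with group means 2.51 apart.

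The other enzymes of the elongation cycle had fold changes of both signs. Of 7 genes listed, 6 were tested and 0 passed limma. In 4 the sorafenib pair lay below the carrier pair and in 1 above, beside 41.3% and 17.5% of all tested genes. The median log2 fold change was -0.21 beside -0.26 over all genes. With TMM and RLE scaling this median turned to 0.05 and 0.06, with 3 and 4 of the 6 positive. Hsd17b12, the ketoacyl reductase, measured 175 and 157 CPM with carrier and 141 and 135 CPM with sorafenib. The dehydratase genes Hacd2, at 75.0 and 74.9 against 67.6 and 67.7 CPM, and Hacd3, at 137 and 121 against 147 and 169 CPM, had narrow gaps between groups. The fold changes of Hsd17b12 and Hacd2 were -0.26 and -0.15 on CPM and change sign with at least 1 of the 3 scalings. Tecr, the enoyl reductase, was at 241 and 166 CPM against 238 and 436 CPM, with a log2 fold change of 0.68 and overlapping groups, and Tecrl had 0 reads.

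Genes listed as substrate supply, which serve the making of palmitate and malonyl-CoA or activate fatty acids to acyl-CoA, were mostly higher. Of 13 tested, 0 passed limma, and 10 had the sorafenib pair above the carrier pair and 2 below. Of all tested genes 17.5% lay above and 41.3% below on CPM, or 27.2% and 29.2% with TMM scaling. The median log2 fold change of the supply genes was 0.90 (0.76 for sorafenib replicate 1 and 1.37 for replicate 2). Acaca, the acetyl-CoA carboxylase of lipogenesis, was at 90.3 and 85.5 CPM against 149 and 174 CPM, and Acss2, an acetyl-CoA synthetase, at 56.3 and 49.8 against 134 and 279 CPM. Thrsp, a lipogenic nuclear protein, was at 373 and 238 against 890 and 1811 CPM. Acsl4, which activates arachidonate, was in the other direction at 107 and 123 against 83.6 and 36.0 CPM.

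The desaturases divided. Of 7 listed, 5 were tested and 0 passed limma, with a median of -0.93 (-0.20 and -1.67 for sorafenib replicates 1 and 2). Scd1, which desaturates the stearate that Elovl6 makes, was at 1939 and 2608 CPM against 5825 and 8871 CPM. Scd2, the other abundant gene of that activity, was at 443 and 403 CPM against 293 and 7.05 CPM, by far the lowest in sorafenib replicate 2 (log2 fold change -3.12, limma adjusted p = 0.292). Fads2, which works before and after Elovl5, was at 326 and 261 CPM against 192 and 85.8 CPM. Fads1 was at 451 and 408 against 506 and 428 CPM, with overlapping groups.

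Among 15 regulators 0 passed limma, 5 lay above and 5 below, beside 17.5% and 41.3% of all tested genes. The median was 0.09, with 0.19 for sorafenib replicate 1 and -0.02 for replicate 2, and 0.34 with TMM scaling. Srebf1, whose product is known to drive Elovl6, was at 244 and 261 CPM against 408 and 607 CPM, and Mlxipl, the gene of ChREBP, at 662 and 548 against 1009 and 1342 CPM. Insig1 and Insig2, which both hold SREBP in the endoplasmic reticulum, had fold changes of opposite sign. Insig1 was at 147 and 164 against 218 and 311 CPM, and Insig2 at 112 and 155 against 109 and 69.8 CPM, a narrow gap in sorafenib replicate 1.

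On the side that uses or shortens very long chains, sphingolipid genes and peroxisomal genes had medians of opposite sign, the former not far from that of all genes. Of 12 sphingolipid genes 10 were tested, 0 passed limma, 0 lay above and 5 below. Of all tested genes 17.5% lay above and 41.3% below. The median of the sphingolipid genes was -0.44, and -0.22 with TMM scaling or with sorafenib replicate 1 alone. Over all tested genes the median was -0.26, or -0.04 with TMM scaling and -0.10 with sorafenib replicate 1 alone. Cers2, the ceramide synthase that takes the products of Elovl1, was level at 338 and 366 CPM against 346 and 362 CPM (log2 fold change 0.01, SE 0.204), while Sptlc2, of the first sphingolipid step, was at 78.9 and 82.4 against 51.6 and 15.1 CPM. Of 10 peroxisomal genes 0 passed limma, 9 lay above and 1 below, with a median of 0.86. The shares of all tested genes were 17.5% and 41.3% on CPM, and 27.2% and 29.2% with TMM scaling. Abcd3, a peroxisomal membrane transporter, was at 174 and 186 against 286 and 619 CPM. Abcd2, a transporter of very long chains, was the peroxisomal gene below, at 95.7 and 136 against 80.4 and 40.0 CPM. The medians of supply, desaturase, sphingolipid and peroxisomal genes kept their signs under all 3 scalings.

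**Figure D5:**
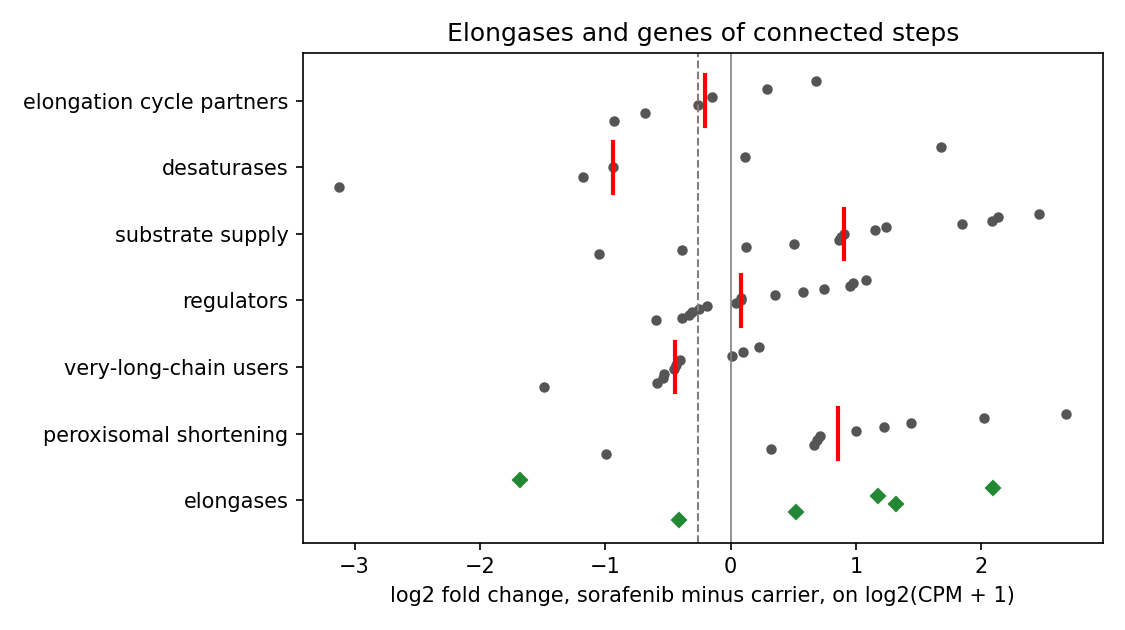
Log2 fold change (sorafenib minus carrier, log2(CPM + 1)) of the tested genes of 6 connected steps as dots with red bars at the list medians, and of the 6 elongases as green diamonds; the dashed line is the median of all tested genes (-0.26). Supply (median 0.90) and peroxisomal genes (0.86) lie mostly to the right and cycle partners (-0.21) near the dashed line.

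Markers of some other cells also differed between the groups. The sorafenib pair lay below the carrier pair for all 6 macrophage markers, 5 of 6 endothelial markers and 4 of 6 stellate and fibroblast markers, beside 41.3% of all tested genes on CPM and 29.2% with TMM scaling. The macrophage sum was 202 to 215 CPM in carrier and 50.9 to 107 CPM in sorafenib, the endothelial sum 217 to 256 against 80.2 to 181 CPM, and the stellate and fibroblast sum 322 to 467 against 181 to 214 CPM. None of these 18 genes was at 0. Among the stellate and fibroblast markers, Lrat lay above, at 6.57 and 6.04 against 7.13 and 10.7 CPM, and Dcn had overlapping groups. Of 6 T and B cell markers 4 were tested, and 1 lay above and 2 below, beside 17.5% and 41.3% of all tested genes. Of the 6 biliary markers 5 were tested and their groups overlapped, but the sum was 472 to 672 CPM with carrier and with sorafenib 521 and then 106 CPM. Almost all of it was Spp1, at 467 and 657 against 515 and 96.1 CPM, and Krt19 had 0 reads in sorafenib replicate 1. Krt7, Krt19 and Epcam read higher in sorafenib replicate 2 than in replicate 1, and Spp1 lower. Sox9, at 3.69 and 2.86 CPM, and Cftr, at 0.246 and 0.191 CPM, had equal read counts in both. Their CPM there differ by depth only, and Cftr had 1 read in each. The part of these cell markers in the elongase values was not tested. The adipocyte markers Plin1, Lep and Ucp1 had 0 reads in every library and Adipoq had 0 in all but sorafenib replicate 2, where it was at 0.381 CPM, while Fabp4, which other cells express too, was at 47.4 and 54.0 against 33.7 and 4.19 CPM. Among 6 genes known to be higher in male mouse liver, 1 lay above and 1 below both carrier libraries. Cyp7b1, an oxysterol hydroxylase, was the one above, at 8.93 and 9.43 against 29.3 and 27.1 CPM. Of all tested genes 17.5% lay above and 41.3% below, or 27.2% and 29.2% with TMM scaling. Of 6 genes known to be higher in female mouse liver, 5 were tested and 0 passed limma, while 3 lay above and 0 below. Their median log2 fold change was 2.17 (0.80 for sorafenib replicate 1 and 3.10 for replicate 2). Their sum was 862 and 1219 CPM with carrier and 1287 and 2743 CPM with sorafenib. Of 14 clock genes 0 passed limma, 9 lay above and 3 below, beside 17.5% and 41.3% of all tested genes. The clock genes had a median of 0.48. The part of either list in the elongase values was not tested.

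Likeness of pattern was measured as the Euclidean distance between profiles of log2(CPM + 1), each centred on its own mean over the 4 libraries, among 8279 genes with a mean of at least 10 CPM. With 4 libraries this is a description, and some of so many genes must lie close. Nearest to Elovl6 were Csrp3 (distance 0.17), Neb (0.19) and Cyp2c38 (0.23), and nearest to Elovl5 were mt-Nd2 (0.073) and Abcd3 (0.074). Elovl2 lay nearest to Hipk3 (0.052), Stat5b (0.058) and Fahd2a (0.080), and Elovl1 to Ptpn1 (0.015), Polr3e (0.042) and Emc1 (0.045). Elovl7 lay nearest to Pygb (0.079), Selenbp2 (0.29) and Slc5a1 (0.30), and Elovl3 to Cyp8b1 (0.15), Ddc (0.27) and Gpcpd1 (0.27). Csrp3 measured 4.89 and 2.83 CPM with carrier and 16.2 and 26.9 CPM with sorafenib, and Pygb, at 34.7, 42.1 and 34.9 CPM elsewhere, was at 3.43 CPM in sorafenib replicate 2.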

How the data were processed

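Poly(A) RNA of 4 libraries labelled as liver tumor (2 carrier, 2 sorafenib) was sequenced single-end with 75 cycles from 100 ng of total RNA by a stranded protocol, per the labels. Tools listed in the submitters' processing notes are Subread 1.6.3, STAR 2.6.1c and edgeR 3.22.5, and the build is GRCm38; their roles are not given. The authors deposited 1 table per library in CPM: each column sums to 1000000, and 100% of the values above 0 were whole multiples, within 0.01, of the value of 1 read, which gave back whole reads.

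Sample titles gave the groups and replicate numbers. The main test was limma 3.58.1 (R 4.3.3) with a mean-variance trend on log2(CPM + 1), without scaling factors, over genes reaching 1 CPM in 2 or more libraries, with Benjamini-Hochberg adjustment over all tested genes at 0.05. Fold changes on this scale understate the change of low genes. edgeR 4.0.16 and DESeq2 1.42.0 on the recovered reads, other scalings, filters and pseudocounts, and each library left out in turn were alternatives. The limma code was also run on simulated reads with the same spread for every library. That run is a check of the code only, since the replicate pairs here differ in spread. Neither replicate pair is 1 library deposited again, as chi-square over degrees of freedom was 9.09 (carrier) and 40.9 (sorafenib). Gene positions and exon lengths came from GENCODE M21, and promoters from RefSeq on GRCm38.p6.

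The members, gene lists, motifs and rules were chosen with earlier results of these data known. The text names the 6 members, genes of these lists and the 3 genes nearest in pattern to each member. Some genes that these rules select are not reported here.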

Additional observations from a re-analysis of the deposited data

How the results depend on the processing

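No elongase was called, and 0 genes in all, with limma on CPM, with TMM, RLE or upper-quartile scaling, a pseudocount of 0.5, no filter, a minimum of 5 CPM (which leaves out Elovl3), no variance trend, the replicate number as a block, or by edgeR. DESeq2 called 499 genes and left 1530 without an adjusted p, Elovl3 among them. It called 2 elongases, Elovl5 with a log2 fold change of 1.6001 and Elovl6 with 2.46. Leaving out 1 library at a time gave 0 to 5245 limma calls over all genes (1 without carrier replicate 1, 0 without carrier replicate 2, 5245 without sorafenib replicate 1 and 489 without sorafenib replicate 2) and 0 to 5 elongases (5 without sorafenib replicate 1, 1 without sorafenib replicate 2). Elovl3 did not pass the filter without either sorafenib library. Over the same fits the log2 fold change ran from -0.85 to 0.027 for Elovl1, 0.20 to 0.83 for Elovl2, 0.66 to 1.69 for Elovl5, 1.71 to 2.48 for Elovl6 and -3.17 to -0.20 for Elovl7. The change in the Elovl3 over Elovl5 ratio ran from -0.70 without sorafenib replicate 1 to 1.00 without sorafenib replicate 2. Without one sorafenib library, a fit takes its spread from the carrier pair. Every change in summed level and in shares, and those in the other 14 ratios, kept its direction without each library; sums and shares did so too with the longest transcript as length or none, and all 15 ratios with a pseudocount of 0.5. With the replicate number as a block the fold changes stay as they are, and the limma adjusted p of Elovl6 was 0.108. Same-numbered libraries deviated from their group means with a correlation of 0.15 over 13149 genes, and the labels give no pairing beyond the number. Depth limits Elovl3, at 1 to 11 reads, and Elovl7 in sorafenib replicate 2, at 2 reads.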

Other observations

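The elongases can also be set beside enzymes that share their substrates. Reads of Elovl5 per read of Fads2, the desaturase of the same polyunsaturated route, were 0.754 and 1.01 in the carrier libraries and 2.10 and 9.60 in sorafenib replicates 1 and 2. For Elovl2 per Fads2 the values were 0.999 and 1.80 against 2.35 and 8.12. Both ratios were therefore higher in each sorafenib library than in each carrier library, with the wider step in replicate 2. Elovl5 per Fads1 was 0.545 and 0.647 against 0.794 and 1.93. On the saturated route, Elovl6 per Fasn was 0.128 and 0.107 against 0.197 and 0.231, whereas Elovl6 per Scd1 was 0.0509 and 0.0276 against 0.0478 and 0.0534, with overlapping groups. Elovl1 per Cers2 was 0.200 and 0.154 against 0.182 and 0.0931, also overlapping. These ratios were chosen after the values of the genes were seen, are not corrected for length, and were not tested.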
